A study of Mus musculus with 6 samples.

Results

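Cell cycle and growth arrest genes were examined in keratinocytes, the main cell type of the epidermis, grown in culture from mouse skin with and without the zinc-finger repressors Ovol1 and Ovol2. The set was a list of 57 gene symbols: 19 genes of DNA replication, 24 of mitosis, 5 cyclins and kinases of the G1/S step, 4 transcription factors and 5 cyclin-dependent kinase (CDK) inhibitors. A gene was found through the platform's gene symbol, using only probe sets with 1 symbol and the brightest of them for a gene. By this rule 55 of the 57 were measured, out of 19938 genes in all, and Ccnb1 and Cdkn1a were not analysed here. The cells came from C57BL/6 skin at E18.5, shortly before birth, labelled female, with 2 mice pooled on each array and 2 arrays in each of 3 groups, which the labels call biological replicates. DKO arrays carried Ovol2flox/- with K14-Cre on an Ovol1-/- background, so Ovol2 was targeted only in cells that express the keratin 14 promoter, which is active in basal keratinocytes. Ovol1 KO arrays were Ovol1-/-. Control arrays were Ovol2flox/+, combined either with Ovol1+/- or with K14-Cre, so the Control mice carried altered alleles too. In every group the cells grew for 2 to 5 days, were then given calcium, which makes keratinocytes differentiate, and grew for another 3 to 5 days.

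A dividing cell first commits to a new cycle in G1, when D-type and E-type cyclins with their kinases inactivate the Rb family and free E2F factors to switch on the genes of DNA replication. Later, in G2 and mitosis, a second wave of genes is switched on by B-Myb and FoxM1 bound with the MuvB complex, and their products condense chromosomes, build the spindle and divide the cell. CDK inhibitors hold cells in G1. In the epidermis it is mainly basal cells that divide, and differentiating cells leave the cycle as they move up.

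On the scale used throughout, log2 of intensity plus 16 after quantile normalization, the Ovol1 probe set read 10.58 and 10.59 in DKO, 10.53 and 10.22 in Ovol1 KO, and 10.27 and 9.85 in Control (arrays 1 and 2 of each group). Neither knockout group was below Control, and where the probes lie relative to the deleted part is not given in the sources used here, so this probe set does not check the labels. Ovol2 read 8.71 and 8.32 in DKO, 9.0 and 8.99 in Ovol1 KO, and 8.12 and 8.82 in Control, with the same limit. Xist, the RNA of the inactive X chromosome, read 12.12 and 12.26 in DKO, 4.59 and 11.97 in Ovol1 KO, and 4.71 and 4.65 in Control, so 3 arrays went against the female label. Keratin 5 and keratin 14 were bright on every array (13.61 or above). The spinous keratins Krt1 and Krt10 were both 4.14 higher on the log2 scale in DKO than in Control (adjusted p 0.0222 and 0.00352, limma). Over the 10 basal and spinous keratinocyte markers the median difference was 0.66, with 9 above 0 and 1 below, 4 called higher and 1 called lower. Summed over 8 melanocyte markers, none of them at intensity 0, the deposited intensity was 1802 and 1106 in DKO, 6871 and 1489 in Ovol1 KO, and 5146 and 1395 in Control. Array 1 was thus the higher one for melanocyte markers in each group. The 8 fibroblast markers, again with none at 0, summed to 9212 and 8551 in DKO, 3551 and 4764 in Ovol1 KO, and 5536 and 2043 in Control. Bright markers weigh most in such a sum. On the log2 scale 5 of the 8 had a higher mean in DKO than in Control and 3 a lower one. Their median difference was 0.15, with 0 called higher and 1 called lower. In bulk RNA, fewer cells of a type and less RNA per cell cannot be told apart.

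None of the 55 measured cell cycle genes passed the test in any comparison. Differences were tested with limma over all 19938 genes, and a gene was called at a Benjamini-Hochberg adjusted p below 0.05. Of all genes, 3.2% were called in DKO against Control, 0% in Ovol1 KO against Control and 2.15% in DKO against Ovol1 KO. At an unadjusted p below 0.05 there were 5 members in DKO against Control (14.5% of all genes), 0 in Ovol1 KO against Control (0.813%) and 3 in DKO against Ovol1 KO (13.3%). The 5 were Ccnd1, Ccnd2, Ccne1, Cdk2 and Cdkn1c, and the 3 were Ccnd1, Ccne1 and Mybl2. None was a replication or mitosis gene, although these make up most of the set. Both DKO arrays were below both Control arrays for 8 of the 55 members (21.5% of all genes) and above them for 5 (23.1%).

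The mitosis genes moved together, array by array. Every one of the 23 measured was higher on DKO 1 than on DKO 2, higher on Ovol1 KO 2 than on Ovol1 KO 1, and higher on Control 2 than on Control 1. The same pattern was held by 17.8% of all genes, by 9 of the 19 replication members and by 1 of the 4 inhibitors. Array 2 minus array 1 had a median over the mitosis members of -0.75 in DKO (range -1.07 to -0.28), 0.61 in Ovol1 KO (0.18 to 1.24) and 0.55 in Control (0.22 to 0.90). The corresponding medians over all genes were 0.02, 0.14 and 0.01. Relative to each gene's own mean, the median mitosis member stood at 0.48 and -0.27 in DKO, -0.33 and 0.33 in Ovol1 KO, and -0.42 and 0.19 in Control. The 23 genes share the 6 arrays, so the count describes these arrays and holds no replicates of its own.

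**Figure D1:**
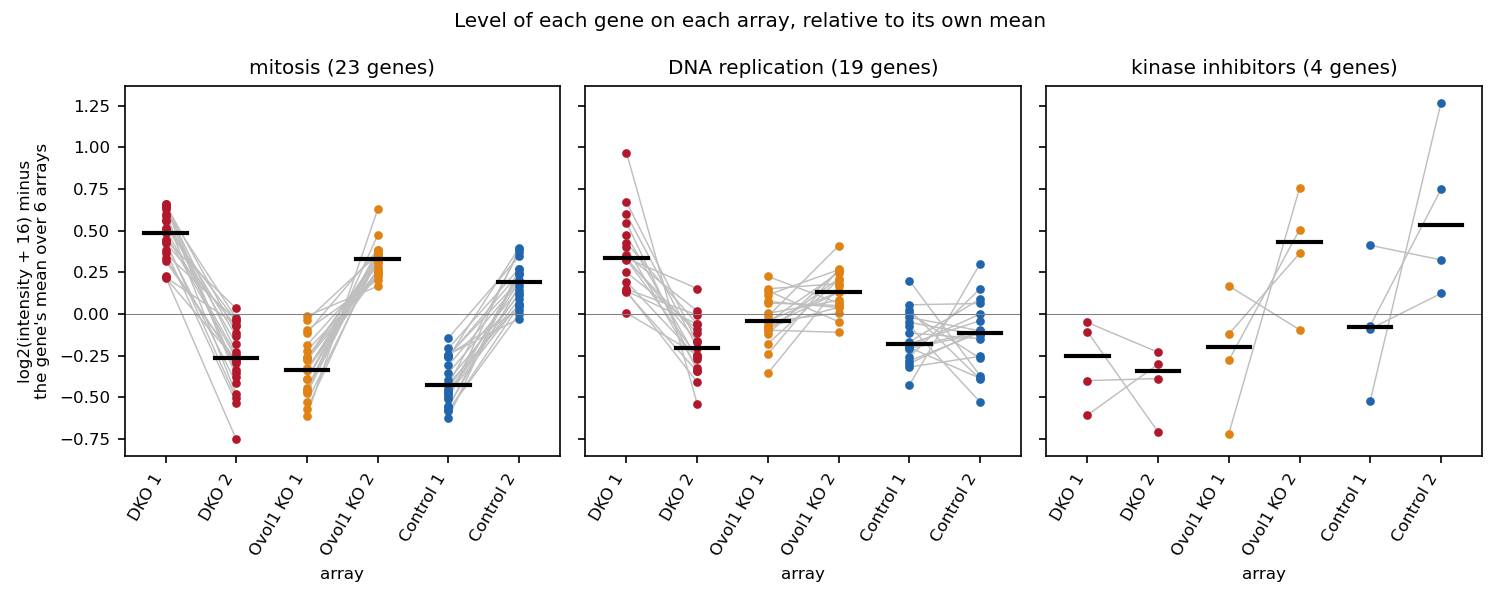
Level of each mitosis, replication and inhibitor gene on each of the 6 arrays, as log2(intensity + 16) minus the gene's own mean over the arrays, with a grey line joining the 2 arrays of a group and a black bar at the median. The mitosis genes were high on the same arrays (DKO 1, Ovol1 KO 2, Control 2) and low on the others, while the replication genes split mainly in DKO.

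Ccnb2, a B-type cyclin that activates Cdk1, read 12.39 and 11.89 in DKO, 11.48 and 12.33 in Ovol1 KO, and 11.51 and 12.15 in Control. Ccna2, the cyclin of S phase and G2, read 12.08 and 11.68 in DKO, 11.33 and 12.04 in Ovol1 KO, and 11.22 and 11.96 in Control. Cdk1, the kinase that drives entry into mitosis, read 11.86 and 11.58 in DKO, 11.38 and 11.96 in Ovol1 KO, and 11.39 and 11.67 in Control. For all 3 genes of this engine the groups overlapped, with 1 high array in each group. Aurkb, the kinase of the chromosomal passenger complex, read 11.83 and 11.10 in DKO, 10.94 and 11.59 in Ovol1 KO, and 10.80 and 11.40 in Control. Plk1, a kinase that acts on centrosomes and at mitotic entry, read 11.61 and 10.98 in DKO, 11.01 and 11.62 in Ovol1 KO, and 10.97 and 11.46 in Control. Both kinases had a high and a low array in every group, and the groups overlapped. Mad2l1, a spindle checkpoint protein, read 11.38 and 10.97 in DKO, 10.49 and 11.32 in Ovol1 KO, and 10.45 and 10.99 in Control. Top2a, the topoisomerase that untangles sister chromatids, read 11.28 and 10.72 in DKO, 10.43 and 11.00 in Ovol1 KO, and 10.21 and 10.93 in Control. Cdc20, which activates the anaphase-promoting complex, read 11.28 and 10.51 in DKO, 10.09 and 10.95 in Ovol1 KO, and 10.00 and 10.89 in Control. For these genes DKO 1 was the highest array, Control 1 the lowest, and the groups again overlapped.

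Between the groups the mitosis genes differed little beside that spread. DKO minus Control had a median of 0.27 over the 23 members, from -0.36 for Kif23, a motor of cytokinesis, to 0.57 for Cenpa, the histone variant of centromeres, with 19 above 0 and 4 below. The median over all genes was 0.02. The median standard error of this difference was 0.33 for mitosis members and 0.19 for all genes. Both DKO arrays stood above both Control arrays for 0 of the 23 (23.1% of all genes), and below them for 0 (21.5%). Mki67, the gene of the proliferation antigen Ki-67, was 0.50 higher in DKO with a standard error of 0.32 (adjusted p = 0.583, limma), and Cdc20 was 0.45 higher with a standard error of 0.42 (adjusted p = 0.753). The sign of the difference depended on the replicate number. DKO 1 minus Control 1 had a median of 0.88, above 0 in 23 of 23 genes, and DKO 2 minus Control 2 a median of -0.39, above 0 in 0 of 23. DKO was above Control in both numbers for 0 of the 23, against 33.1% of all genes. Leaving out DKO 1 gave a group median of -0.15, leaving out DKO 2 gave 0.64, leaving out Control 1 gave -0.04 and leaving out Control 2 gave 0.56. For Top2a a second, dimmer probe set gave -0.13 where the one used gave 0.43, although it too was higher on DKO 1, Ovol1 KO 2 and Control 2.

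Array 1 had the higher melanocyte sum in each group. The higher mitosis array was array 1 in DKO and array 2 in Ovol1 KO and Control. Xist was low on both Control arrays and high on both DKO arrays, and the mitosis members differed within each of those pairs. In Ovol1 KO, Xist read 4.59 on array 1 and 11.97 on array 2, and the mitosis members were higher on array 2. Whether melanocyte content, Xist or the other markers had a part in the pattern was not tested.

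The pattern extended to mitosis genes outside the set. Of 67 further mitosis genes measured, 61 were higher on DKO 1, Ovol1 KO 2 and Control 2, and the exceptions were Cdca5, Ska1, Pttg1, Cenpl, Zwint and Shcbp1. Their median deviations were 0.42 and -0.26 in DKO, -0.25 and 0.30 in Ovol1 KO, and -0.30 and 0.12 in Control. None of the 67 was called in DKO against Control, in Ovol1 KO against Control or in DKO against Ovol1 KO.

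The promoters of the members were read for letters known from cell cycle genes. The gene lists were drawn up by cell cycle role, so the shares below describe the lists and not the pattern over the arrays. The CHR element (TTTGAA or TTTAAA), to which the MuvB complex binds, the CCAAT box (CCAAT), the site of the factor NF-Y, and the E2F site (TTCCCGC or TTGGCGC) were searched on both strands, from 250 bases before to 50 after the start. RefSeq promoters (build GRCm38.p6) were matched for 43 of the 57 members, 41 of them measured. The CHR letters were in 15 of 18 promoters of mitosis members (83.3%) and in 5 of 17 of replication members (29.4%), against 27.6% of all 32851 promoters. The E2F letters went the other way, with 2 of 18 mitosis promoters (11.1%) and 10 of 17 replication promoters (58.8%), against 6.81% of all. CCAAT stood in 14 of 18 mitosis promoters (77.8%) and 13 of 17 replication promoters (76.5%), against 37.4% of all. An E2F site overlapped a CCAAT box in 2 promoters of measured members. CCGTTA, the core letters to which Ovol proteins bind, were in 1 of 18 mitosis promoters (5.56%) and 0 of 17 replication promoters, against 2.76% of all. Among genes outside the set they were in 4 of 61 mitosis promoters (6.56%) and 4 of 52 replication promoters (7.69%). They were also in 4 of 43 promoters of G1, Rb and E2F genes (9.3%) and 0 of 30 of p53 response genes. Of 61 promoters of the further mitosis genes, 44 held the CHR letters (72.1%) and 14 the E2F letters (23.0%). Of 52 promoters of further replication genes, 11 held the CHR letters (21.2%) and 25 the E2F letters (48.1%). CCAAT stood in 45 of the 61 (73.8%) and 24 of the 52 (46.2%). A match is a description of the letters and not a bound site.

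The 250 bases before the start are shown for 3 mitosis genes and 2 replication genes to show how the elements are laid out, 5′ to 3′ on the gene's strand, with every match to the 3 elements in capitals, on either strand. They are Cdk1 (chr10:69352913-69353162, minus strand), Cdc20 (chr4:118437344-118437593, minus), Top2a (chr11:99024190-99024439, minus), Rrm1 (chr7:102441445-102441694, plus) and Mcm5 (chr8:75109259-75109508, plus), all in GRCm38.p6.
Cdk1: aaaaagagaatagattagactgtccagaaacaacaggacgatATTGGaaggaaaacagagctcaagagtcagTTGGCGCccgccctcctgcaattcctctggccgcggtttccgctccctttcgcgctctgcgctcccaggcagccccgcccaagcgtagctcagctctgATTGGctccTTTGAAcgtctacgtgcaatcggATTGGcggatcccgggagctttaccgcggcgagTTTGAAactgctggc
Cdc20: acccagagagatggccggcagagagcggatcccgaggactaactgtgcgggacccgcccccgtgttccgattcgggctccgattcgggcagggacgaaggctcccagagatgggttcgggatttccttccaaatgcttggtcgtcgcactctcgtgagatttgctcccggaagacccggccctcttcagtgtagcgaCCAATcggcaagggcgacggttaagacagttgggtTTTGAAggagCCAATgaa
Top2a: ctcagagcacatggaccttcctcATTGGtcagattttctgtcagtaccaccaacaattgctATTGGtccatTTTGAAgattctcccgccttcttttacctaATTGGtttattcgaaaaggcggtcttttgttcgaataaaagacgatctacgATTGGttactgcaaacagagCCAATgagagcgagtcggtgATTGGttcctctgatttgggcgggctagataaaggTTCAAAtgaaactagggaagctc
Rrm1: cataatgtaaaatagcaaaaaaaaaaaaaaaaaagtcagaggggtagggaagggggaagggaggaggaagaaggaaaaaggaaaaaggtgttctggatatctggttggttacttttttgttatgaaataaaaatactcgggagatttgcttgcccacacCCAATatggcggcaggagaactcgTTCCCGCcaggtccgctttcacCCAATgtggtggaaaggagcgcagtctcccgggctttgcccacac
Mcm5: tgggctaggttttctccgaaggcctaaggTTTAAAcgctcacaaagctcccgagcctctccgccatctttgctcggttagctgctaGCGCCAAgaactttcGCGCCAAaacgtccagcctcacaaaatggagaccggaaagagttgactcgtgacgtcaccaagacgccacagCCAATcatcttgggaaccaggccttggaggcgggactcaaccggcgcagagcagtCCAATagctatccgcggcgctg
Counted from the start, Cdk1 has CHR letters with their first base at -71 and -15, CCAAT boxes at -208, -80 and -48, and an E2F site further out, at -178. Cdc20 has a CHR at -18 and CCAAT boxes at -53 and -8. Top2a has CHR letters at -179 and -23 and 6 CCAAT boxes between -227 and -58. Rrm1 has no CHR letters in this window and an E2F site at -67 between CCAAT boxes at -91 and -45. Mcm5 has E2F sites at -164 and -149 and a CHR match only far out, at -221. Rrm1 and Mcm5 were also higher on DKO 1, Ovol1 KO 2 and Control 2. Whether any of these letters had a part in the pattern was not tested.

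The replication genes had a median slightly above Control in both knockout groups, in DKO only through array 1, and none was called. DKO minus Control had a median of 0.22 over the 19 members (range -0.18 to 0.55), with 16 above 0 and 3 below. Ovol1 KO minus Control had a median of 0.18, with 17 above 0 and 2 below, while the median over all genes was -0.06. DKO minus Ovol1 KO had a median of 0.04. Leaving out DKO 1 gave -0.03 against Control and -0.21 against Ovol1 KO, and leaving out DKO 2 gave 0.48 and 0.28. The smallest adjusted p in DKO against Control was 0.345, for Mcm6. Within DKO the replication genes split as the mitosis genes did, 19 of 19 being higher on array 1, but within Control only 11 of 19 were higher on array 2.

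Pcna, the sliding clamp of DNA polymerases, read 12.43 and 12.28 in DKO, 12.36 and 12.32 in Ovol1 KO, and 12.29 and 12.02 in Control. Rrm1, the large subunit of ribonucleotide reductase, read 11.77 and 11.57 in DKO, 11.39 and 11.89 in Ovol1 KO, and 11.37 and 11.78 in Control. Rrm2, its small subunit, read 12.08 and 11.19 in DKO, 11.43 and 11.74 in Ovol1 KO, and 11.32 and 11.41 in Control. Both Ovol1 KO arrays were above both Control arrays for Pcna and Rrm2 but not for Rrm1, and DKO overlapped Control for all 3. Mcm4, Mcm5 and Mcm7 are subunits of the helicase that opens the DNA at origins. Mcm4 read 10.94 and 10.45 in DKO, 10.61 and 10.69 in Ovol1 KO, and 10.50 and 10.46 in Control. Mcm5 read 10.52 and 10.18 in DKO, 10.20 and 10.40 in Ovol1 KO, and 10.10 and 10.23 in Control. Mcm7 read 11.00 and 10.51 in DKO, 10.39 and 10.78 in Ovol1 KO, and 10.27 and 10.47 in Control. DKO 1 was the highest array for each, and only for Mcm7 were both DKO arrays above both Control arrays, by a narrow margin.

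DKO stood wholly above Control for 3 of the 19 replication members, Mcm6, Mcm7 and Gins2 (23.1% of all genes), and wholly below it for 1, Cdt1 (21.5%). The helicase subunit Mcm6 had the smallest p of the group, with 0.47 more in DKO than in Control (standard error 0.20, adjusted p = 0.345) and 0.39 more in Ovol1 KO than in Control (adjusted p = 0.9999). Tyms, which makes thymidylate for DNA, had the largest mean difference, 0.55 (standard error 0.31, adjusted p = 0.513), with DKO 2 below Control 1. Cdt1, which loads the helicase at origins, was -0.18 in DKO (standard error 0.18, adjusted p = 0.782). Of 48 further replication genes measured, none was called in DKO against Control, with a median of 0.16, 40 above 0 and 8 below.

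**Figure D2:**
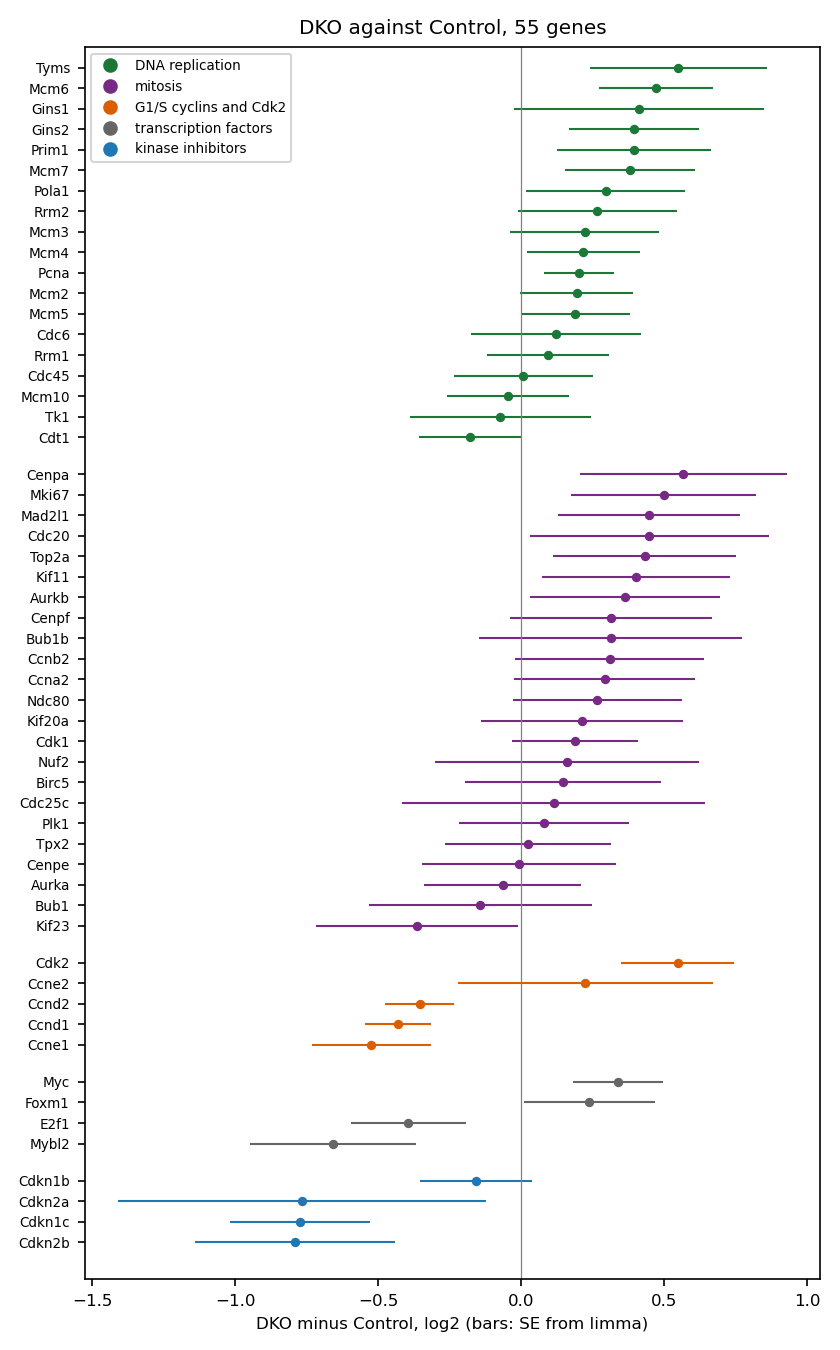
Difference between the means of the 2 DKO arrays and the 2 Control arrays for the 55 measured genes, on the log2(intensity + 16) scale, with bars of 1 standard error from limma and colours by role. Replication and mitosis genes lie mostly a little above 0, the CDK inhibitors below 0, and no gene passed the adjusted threshold.

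G1/S genes were 4 of the 5 members with an unadjusted p below 0.05 in DKO against Control (limma), a threshold that 14.5% of all genes passed. They did not move as 1 group. Ccnd1, Ccnd2 and Ccne1 were lower in DKO than in Control, Cdk2 was higher, and none passed the adjusted threshold. Ccnd1, a D-type cyclin that responds to growth signals, read 11.97 and 11.89 in DKO, 12.24 and 12.27 in Ovol1 KO, and 12.24 and 12.49 in Control. Its 2 DKO arrays lay below the other 4, by -0.43 against Control (standard error 0.12, adjusted p = 0.128) and by -0.32 against Ovol1 KO (adjusted p = 0.300). Ccnd2, a second D-type cyclin, read 12.45 and 12.51 in DKO, 12.77 and 12.76 in Ovol1 KO, and 12.66 and 13.01 in Control. DKO was again wholly lower, by -0.36 against Control (standard error 0.12, adjusted p = 0.225) and by -0.28 against Ovol1 KO (adjusted p = 0.383).

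Ccne1, an E-type cyclin that activates Cdk2 at the start of S phase, read 9.73 and 9.67 in DKO, 10.14 and 10.37 in Ovol1 KO, and 10.00 and 10.45 in Control. Both DKO arrays were below the other 4, by -0.52 against Control (standard error 0.21, adjusted p = 0.313) and by -0.55 against Ovol1 KO (adjusted p = 0.322). Ccne2, its close relative, read 9.44 and 8.07 in DKO, 9.04 and 8.92 in Ovol1 KO, and 8.86 and 8.20 in Control. Here the DKO arrays enclosed all others, and DKO minus Control was 0.22 with a standard error of 0.45 (adjusted p = 0.911). Cdk2 read 10.26 and 9.94 in DKO, 9.98 and 9.94 in Ovol1 KO, and 9.69 and 9.42 in Control. Both knockout groups were wholly above Control, DKO by 0.55 (standard error 0.20, adjusted p = 0.260) and Ovol1 KO by 0.40 (adjusted p = 0.9999).

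Among the transcription factors, Myc had its highest mean in DKO and E2f1 and Mybl2 their lowest, again with no call. Myc, which drives growth and cell cycle entry, read 12.18 and 12.36 in DKO, 12.11 and 12.14 in Ovol1 KO, and 11.72 and 12.14 in Control. DKO was wholly above Control, by 0.34 (standard error 0.16, adjusted p = 0.399), and Control 1 was the array that stood low. E2f1, an activating E2F factor, read 9.16 and 8.82 in DKO, 9.20 and 9.27 in Ovol1 KO, and 9.49 and 9.29 in Control. The groups did not overlap and were ordered DKO, Ovol1 KO, Control from low to high, with DKO minus Control at -0.39 (standard error 0.20, adjusted p = 0.463) and Ovol1 KO minus Control at -0.15 (adjusted p = 0.9999). Of the E2F genes E2f2 to E2f8, outside the set, only E2f5 had a lower mean in DKO than in Control, as E2f1 did. In DKO minus Control, E2f2 stood at 0.81, E2f8 at 0.57, E2f3 at 0.30 and E2f7 at 0.29. E2f6 stood at 0.10, E2f4 at 0.03 and E2f5 at -0.36, and none of the 7 was called.

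Mybl2, the gene of B-Myb, read 8.96 and 8.15 in DKO, 9.41 and 9.16 in Ovol1 KO, and 9.29 and 9.14 in Control. DKO was wholly lower, by -0.66 against Control (standard error 0.29, adjusted p = 0.368) and by -0.73 against Ovol1 KO (adjusted p = 0.344), most of it through DKO 2. Foxm1, the other factor of the mitotic wave, read 10.26 and 9.68 in DKO, 9.93 and 10.09 in Ovol1 KO, and 9.74 and 9.73 in Control. Its Ovol1 KO arrays were above both Control arrays, and its DKO arrays lay on either side of them. None of the 4 factors was higher on DKO 1, Ovol1 KO 2 and Control 2 together, the pattern that all 23 mitosis members held.

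The 4 measured CDK inhibitors of the set were lower on average in DKO than in Control, with a median difference of -0.77, and none of them was called. Cdkn1c, an inhibitor of the Cip/Kip family that is active in differentiating tissues, read 8.47 and 7.87 in DKO, 8.74 and 8.48 in Ovol1 KO, and 8.99 and 8.90 in Control. The groups did not overlap and were ordered DKO, Ovol1 KO, Control from low to high, with DKO minus Control at -0.77 (standard error 0.24, adjusted p = 0.192) and Ovol1 KO minus Control at -0.33 (adjusted p = 0.9999). Cdkn2b, an inhibitor of the Ink4 family that responds to TGF-beta, read 9.64 and 9.94 in DKO, 9.97 and 10.75 in Ovol1 KO, and 10.18 and 10.99 in Control. DKO was wholly below Control, by -0.79 (standard error 0.35, adjusted p = 0.372), and in every group array 2 was higher.

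Cdkn2a, which encodes an Ink4 inhibitor and the p53 activator Arf, read 7.70 and 7.72 in DKO, 7.39 and 8.86 in Ovol1 KO, and 7.58 and 9.37 in Control. Both DKO arrays lay close to array 1 of the other groups, and the difference of -0.77 from Control rested on Control 2 (standard error 0.64, adjusted p = 0.713). Without Control 2 the Cdkn2a difference was 0.13, and the median over the 4 inhibitors was -0.22. Cdkn1b, a Cip/Kip inhibitor that holds cells in G1, read 11.12 and 10.94 in DKO, 11.05 and 11.53 in Ovol1 KO, and 11.08 and 11.29 in Control. The groups overlapped, with -0.16 between DKO and Control (standard error 0.20, adjusted p = 0.838), while its second probe set gave -0.47. Both DKO arrays were below both Control arrays for 2 of the 4 inhibitors, Cdkn1c and Cdkn2b, and 21.5% of all genes were so placed. Outside the set, the inhibitors Cdkn2c and Cdkn2d had means 0.02 and 0.50 above Control in DKO, also without a call.

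**Figure D3:**
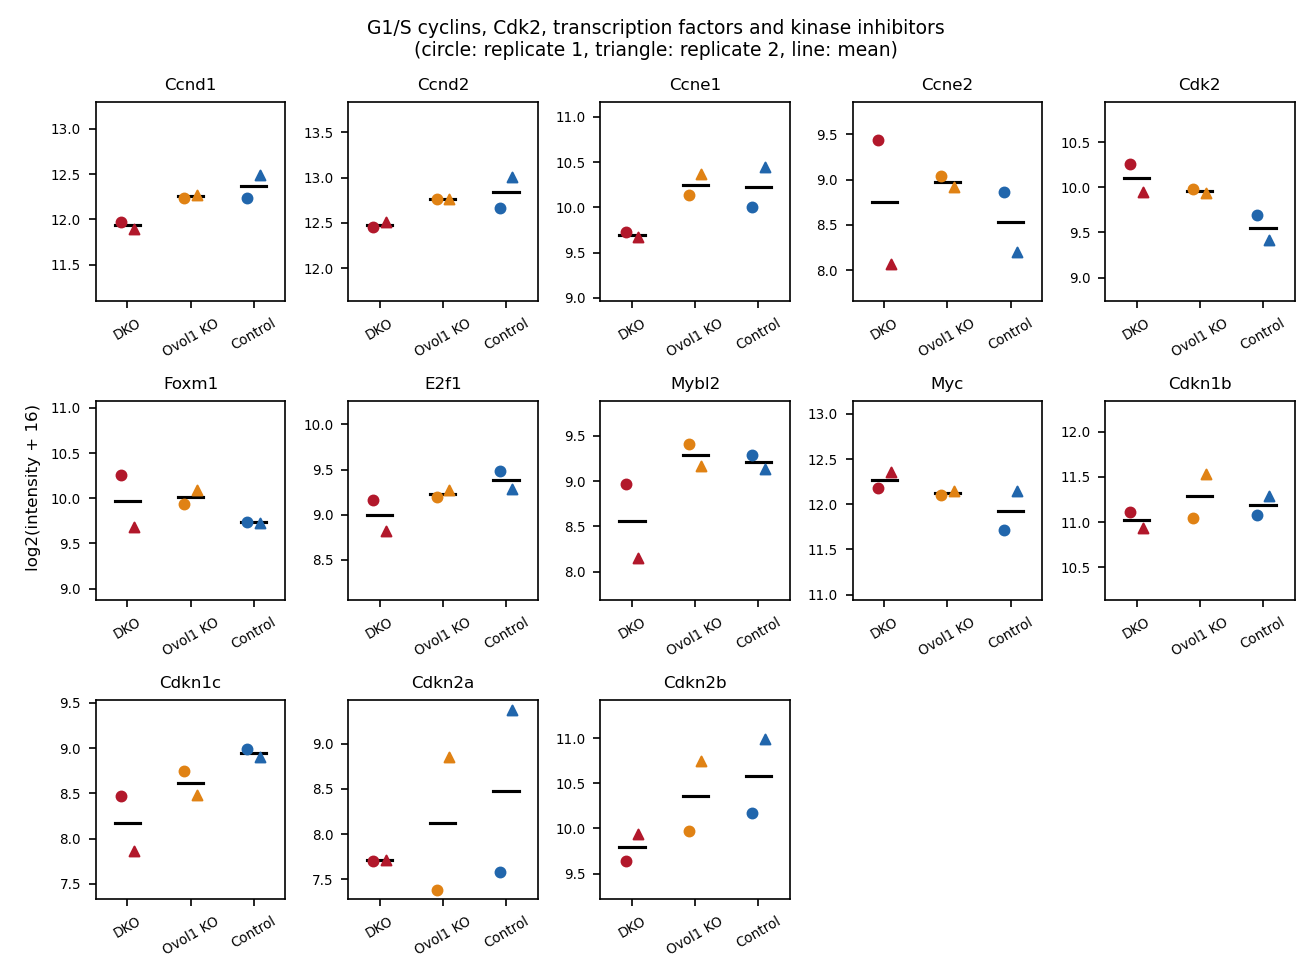
Level on each array, as log2(intensity + 16), of the G1/S cyclins, Cdk2, the 4 transcription factors and the 4 measured CDK inhibitors, with a circle for replicate 1, a triangle for replicate 2 and a line at the group mean of 2 arrays. DKO lies wholly below Control for Ccnd1, Ccnd2, Ccne1, E2f1, Mybl2, Cdkn1c and Cdkn2b, and wholly above it for Cdk2 and Myc. Of all genes, 21.5% lay wholly below and 23.1% wholly above.

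Ovol1 KO was then set against Control within each replicate number. The labels do not say that a number marks a shared litter, batch or day, so these differences are a description of 4 arrays. Ovol1 KO was above Control in both numbers for 34 of the 55 genes, against 15.5% of all genes, and below it in both for 8, against 38.5%. The 34 comprised 14 of 19 replication genes, 15 of 23 mitosis genes, 2 of the 5 G1/S genes, 3 of the 4 transcription factors and 0 of the 4 inhibitors. The 8 comprised 3 mitosis genes, 1 G1/S cyclin (Ccnd1), E2f1, and the inhibitors Cdkn1c, Cdkn2a and Cdkn2b. Another 12 genes differed in sign between the numbers, and Tpx2, the spindle factor that activates Aurora A, read the same on Ovol1 KO 2 and Control 2.

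The sizes were small. Ovol1 KO 1 minus Control 1 had a median of 0.10 for replication genes, 0.09 for mitosis genes and -0.20 for inhibitors, with -0.11 over all genes. Ovol1 KO 2 minus Control 2 had a median of 0.27 for replication genes, 0.18 for mitosis genes and -0.33 for inhibitors, with 0.00 over all genes. Prim1, the catalytic subunit of primase, differed by 0.32 in number 1 and 0.65 in number 2, and Cdk2 by 0.29 and 0.52. Mki67 differed by 0.57 and 0.17, and Myc by 0.39 and 0.00, so that the difference of Myc lay in number 1. Cdkn1c differed by -0.24 and -0.42, and Cdkn2a by -0.20 and -0.51. On the values as deposited, without quantile normalization, 35 members were above Control in both numbers, 15 of them replication and 16 mitosis genes, against 21.5% of all genes.

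**Figure D4:**
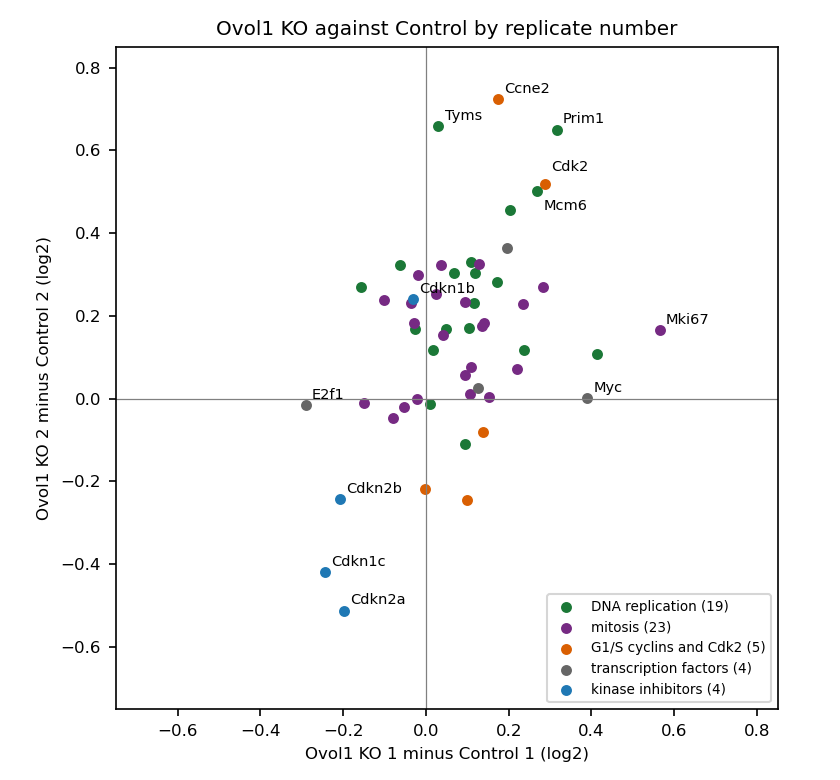
Ovol1 KO minus Control in log2(intensity + 16) for the 55 measured genes, with replicate number 1 on the horizontal axis and number 2 on the vertical axis, coloured by role. Most replication and mitosis genes lie at the upper right, above 0 on both axes, and Cdkn1c, Cdkn2a and Cdkn2b lie in the lower left.

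In the group fit, the means of Ovol1 KO were above Control for 43 of the 55 genes and below for 12, with none called and a smallest adjusted p of 0.9999. Both Ovol1 KO arrays were above both Control arrays for 9 of 19 replication genes (5.8% of all genes), namely Mcm3, Mcm4, Mcm6, Mcm10, Pcna, Gins1, Rrm2, Tyms and Prim1. The same held for 0 of 23 mitosis genes, for Ccne2 and Cdk2 in G1/S, and for Foxm1. Both were below for E2f1 and Cdkn1c alone (18.3% of all genes). The shares of all genes depend on the normalization. Ovol1 KO minus Control had a median over all genes of -0.06 here and -0.02 on the values as deposited, where these counts were not made. The 2 knockout groups are compared with the same Control arrays, so their differences from Control are not independent.

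DKO against Ovol1 KO, which share the loss of Ovol1 and differ in Ovol2 and K14-Cre, gave no call among the 55 genes, where 0.657% of all genes were called higher and 1.49% lower. Within the numbers, 23 of 23 mitosis genes and 17 of 19 replication genes were higher in DKO 1 than in Ovol1 KO 1 and lower in DKO 2 than in Ovol1 KO 2, and 24.9% of all genes did this. The median over the mitosis genes was 0.78 in number 1 and -0.53 in number 2. Both DKO arrays were above both Ovol1 KO arrays for 1 of the 55 genes, Myc (26.1% of all genes), and below for 9 (16% of all genes), namely Ccnd1, Ccnd2, Ccne1, E2f1, Mybl2, Cdkn1c, Cdkn2b, Mcm10 and Cdt1. Each of the 4 measured inhibitors of the set had a lower mean in DKO, with a median of -0.43.

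Growth control genes outside the set did pass the test in DKO. Of 38 further genes of G1 and the Rb and E2F network, 1 rose and 1 fell in DKO against Control, and of 28 measured genes of the p53 response and growth arrest 1 rose and 2 fell, where 0.943% of all genes rose and 2.26% fell. Ccnd3, the D-type cyclin missing from the set, read 12.07 and 12.11 in DKO, 10.88 and 11.39 in Ovol1 KO, and 10.83 and 11.10 in Control. It rose by 1.12 against Control (standard error 0.20, adjusted p = 0.0325), while Ccnd1 and Ccnd2 had lower means in DKO, and it was 0.96 higher than in Ovol1 KO (adjusted p = 0.0678). Mxd1, which competes with Myc for its partner Max, read 9.63 and 9.84 in DKO, 12.21 and 12.00 in Ovol1 KO, and 12.11 and 12.09 in Control. It fell by 2.36 against Control (standard error 0.15, adjusted p = 0.00111) and fell by 2.37 against Ovol1 KO (adjusted p = 0.00131).

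Gas1, a membrane protein named for its level in growth-arrested fibroblasts, read 11.54 and 11.40 in DKO, 9.76 and 10.21 in Ovol1 KO, and 9.75 and 9.54 in Control. It rose by 1.82 against Control (standard error 0.20, adjusted p = 0.00737) and by 1.48 against Ovol1 KO (adjusted p = 0.0183). Plk2, a stress-induced polo-like kinase, read 11.36 and 11.11 in DKO, 12.42 and 12.02 in Ovol1 KO, and 12.37 and 12.27 in Control. It fell by 1.09 against Control (standard error 0.16, adjusted p = 0.0208) and fell by 0.99 against Ovol1 KO (adjusted p = 0.0356). Plk3, its relative, read 10.38 and 11.15 in DKO, 12.74 and 12.00 in Ovol1 KO, and 12.69 and 12.71 in Control. It fell by 1.94 against Control (standard error 0.30, adjusted p = 0.0231) and stood at -1.61 against Ovol1 KO (adjusted p = 0.0525). In DKO against Control, leaving out DKO 1 ended the calls of Ccnd3, Plk2, Plk3 and Gas1 (adjusted p 0.162, 0.0673, 0.0982 and 0.0586), leaving out DKO 2 those of Ccnd3 and Plk2 (0.156 and 0.108), and leaving out Control 1 that of Ccnd3 (0.0731). In DKO against Ovol1 KO, leaving out Ovol1 KO 1, DKO 1 or DKO 2 ended the calls of Plk2 (0.222, 0.0967 and 0.170) and Gas1 (0.130, 0.116 and 0.0863), and that of Mxd1 held under each array left out. With the Xist level as a covariate none of the 5 was called against Control, Mxd1 having an adjusted p of 0.147 at a difference of -2.15.

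**Figure D5:**
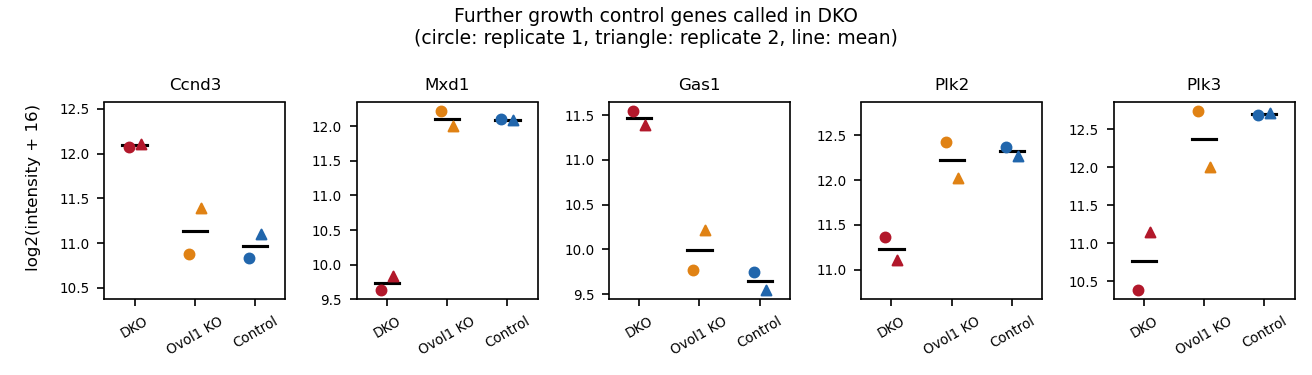
Level on each array, as log2(intensity + 16), of the 5 further growth control genes called in DKO against Control, with a circle for replicate 1, a triangle for replicate 2 and a line at the mean of 2 arrays. For each gene the 2 DKO arrays lie apart from all 4 Ovol1 KO and Control arrays, higher for Ccnd3 and Gas1 and lower for Mxd1, Plk2 and Plk3.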

How the data were processed

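RNA was hybridised to 6 Affymetrix whole-transcript arrays, 2 for each of DKO, Ovol1 KO and Control, grouped by their labels. The deposited values are linear intensities that the authors summarised to 1 value for each probe set on each array. Per the submitters' processing notes, PLIER 2.0 and Affymetrix Expression Console 1.1.1 were used, in roles not stated. Background correction, normalization and detection calls were not given in the sources used here. There were 35556 probe sets, 0 missing values and median intensities per array of 174.2 to 203.6. Of these, 21789 had 1 symbol in the platform annotation, 1621 several and 12146 none, and 21698 of the first were found in RefSeq by Entrez identifier, which changed 0 symbols. The number of arrays limits the precision.

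Intensities were increased by 16, log2-transformed and quantile-normalized, so differences of dim genes are understated. For 999 genes with several probe sets the brightest was used (4 members: Pcna, Tk1, Top2a and Cdkn1b). A limma 3.58.1 fit (R 4.3.3) took all 6 arrays, a mean for each group and a trended variance (3 residual and 3.89 prior degrees of freedom), and Benjamini-Hochberg adjustment ran over 19938 genes. A standard error therefore borrows the spread of the other groups and genes. The procedure was tested on simulated data in which genes varied independently of each other. Those data therefore lacked the shared movement of genes from array to array seen here.

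The members, the gene lists and the tests were chosen with earlier results of these data known. All members may be named. Values on each array are given for inhibitors, transcription factors, cyclins, members with an unadjusted p below 0.05, and the 6 replication and 8 mitosis members with the highest mean. Genes of the further lists are named where called, and otherwise up to 3 with the smallest p. Exceptions by name (the extremes of a range and genes named for their position between groups) were chosen after their values were seen. So were the further genes Cdkn2c, Cdkn2d and E2f2 to E2f8. Alternatives were other offsets (1 and 64), values as deposited, a filter on the dimmest 30% of genes, other variance settings, the mean over probe sets, only the 4 arrays compared, a replicate block, the Xist level as a covariate, and each array left out.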

Additional observations from a re-analysis of the deposited data

How the results depend on the processing

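No member was called under any of 17 alternatives in any of the 3 comparisons (limma). The count of mitosis members higher on DKO 1, Ovol1 KO 2 and Control 2 was 23 under 5 alternatives chosen after seeing the data. With the Xist level as a covariate, which is low on both Control arrays and high on both DKO arrays, the median of DKO minus Control became -0.40 for mitosis members and -1.11 for inhibitors, that of Ovol1 KO minus Control 0.077 for replication members, and that of DKO minus Ovol1 KO -0.75 for inhibitors. With single arrays left out, the inhibitor median ran from -0.97 to -0.22 in DKO minus Control, from -0.46 to 0.26 in Ovol1 KO minus Control and from -0.73 to -0.098 in DKO minus Ovol1 KO, and the replication median of Ovol1 KO minus Control from 0.064 to 0.25. The mitosis median ran from -0.15 to 0.64 in DKO minus Control, -0.21 to 0.45 in Ovol1 KO minus Control and -0.27 to 0.50 in DKO minus Ovol1 KO, and the replication median from -0.03 to 0.48 in DKO minus Control and -0.21 to 0.28 in DKO minus Ovol1 KO. Medians that changed sign also included that of the G1/S genes in Ovol1 KO minus Control (-0.19 to 0.14) and of the transcription factors in DKO minus Control (-0.31 to 0.01). Of the single members recomputed, those that changed sign were Cdkn2a, at -1.66 to 0.13 in DKO minus Control, -1.25 to 0.54 in Ovol1 KO minus Control (0.54 without Control 2, 0.38 without Ovol1 KO 1) and -1.15 to 0.32 in DKO minus Ovol1 KO, Cdkn2b, at -0.63 to 0.18 in Ovol1 KO minus Control (0.18 without Control 2, 0.17 without Ovol1 KO 1), and Myc, at -0.018 to 0.41 there. The cause was not tested.

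The replicate number as a block left 0 members called in each comparison. Across genes, deviations from the group mean correlated between same-numbered arrays at 0.687 for Ovol1 KO and Control, 0.151 for DKO and Control and 0.0875 for DKO and Ovol1 KO, and the labels tie no batch to a number. Members with an unadjusted p below 0.05 numbered 8, 1 and 5 with the block in DKO against Control, Ovol1 KO against Control and DKO against Ovol1 KO, where the fit without it gave 5, 0 and 3, and 13 in Ovol1 KO against Control with the block and only 4 arrays. They numbered 1 with Xist and 11 without DKO 2 in DKO against Control. Of all genes, 639 were called in DKO against Control, 1069 with the block, 8 with Xist, 258 without DKO 1 and 309 without DKO 2. In Ovol1 KO against Control 0 were called, 133 with the block and 4 arrays, and 4 without Ovol1 KO 1. In DKO against Ovol1 KO 429 were called, 805 with the block, 738 with 4 arrays, 73 with Xist, 738 and 734 without Control 1 or 2, 88 and 217 without Ovol1 KO 1 or 2, and 195 and 232 without DKO 1 or 2. A fit without 1 array takes the lone array of that group to vary like the other groups.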

Other observations

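Among further replication and mitosis genes, where none was called, Dnmt1, which copies DNA methylation at replication forks, had the smallest p of the replication list in DKO against Control, with 10.89 and 10.62 in DKO, 10.53 and 10.56 in Ovol1 KO, and 10.30 and 10.29 in Control. DKO minus Control was 0.46 (standard error 0.16, adjusted p = 0.252, limma) and the 3 groups did not overlap. Rnaseh2a, a subunit of the ribonuclease that removes ribonucleotides from DNA, read 10.97 and 10.92 in DKO, 9.90 and 10.63 in Ovol1 KO, and 10.12 and 10.74 in Control, with 0.68 between DKO and Ovol1 KO (adjusted p = 0.393). Zwint, a kinetochore protein, went against the mitosis pattern, with 10.77 and 11.05 in DKO, 11.72 and 11.22 in Ovol1 KO, and 11.69 and 11.29 in Control. It was -0.58 in DKO against Control (standard error 0.23, adjusted p = 0.303), and within each group its lower array was the one on which the mitosis members were high.

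Id2, an inhibitor of basic helix-loop-helix factors that was picked out after its values were seen, read 10.47 and 6.75 in DKO, 11.83 and 11.24 in Ovol1 KO, and 11.90 and 10.62 in Control. For this gene the gap between the DKO arrays was wider than within the other groups, and DKO minus Control was -2.65 with a standard error of 1.08 (adjusted p = 0.325, limma). Mycl, a relative of Myc, read 10.91 and 10.10 in DKO, 9.06 and 10.03 in Ovol1 KO, and 9.11 and 9.52 in Control, with DKO minus Control at 1.19 (standard error 0.39, adjusted p = 0.215).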
